A study of Mus musculus with 4 samples.

Results

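The levels of 37 genes of sterol and fatty acid metabolism were measured by RNA-Seq in cultured large intestinal ILC2s given vehicle or deoxycholic acid (DCA), a bile acid that gut bacteria make from cholic acid. The members were taken as the rows of the deposited RNA-Seq table that carry one of 37 listed gene symbols, and each symbol was found, among 27179 rows in all. They were split by role into 15 enzymes of sterol synthesis, 5 genes of sterol sensing, 10 genes of fatty acid synthesis, 3 genes of cholesterol efflux and receptor turnover, and 4 genes of cholesterol transport and storage. ILC2s are lymphocytes without antigen receptors that respond to epithelial alarm cytokines. They were sorted from C57BL/6 mice and kept for 5 days before treatment with 4 cytokines at 10 ng/mL each: the survival factors IL-2 and IL-7 and the alarm cytokines IL-25 and IL-33. The comparison was between 2 vehicle libraries (labelled Ctrl) and 2 DCA libraries, and all 4 came from cells that had the same cytokines. DCA was used at 100 μM. The methods give the age of the mice as 6 to 8 weeks in one place and as a wider range with older mice in another. The methods name both sexes in one place and only males for C57BL/6J in another, and the labels name colon as the tissue. The treatment time is 16 hours in the design text and 24 hours in the paper. Neither says how many mice or cultures stand behind a library, so the p-values below measure only the spread between these libraries, which may be technical.

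Cells make cholesterol from acetyl-CoA through mevalonate, squalene, and lanosterol, and they make fatty acids from the same acetyl-CoA through malonyl-CoA. When sterols in the ER fall, SCAP carries the transcription factors SREBP-1 and SREBP-2 (encoded by Srebf1 and Srebf2) to the Golgi, where they are cut and released to raise the synthesis genes, and when sterols are plentiful the INSIG proteins hold SCAP in the ER. Oxysterols also activate the nuclear receptor LXR, which raises the efflux pumps ABCA1 and ABCG1 and the ubiquitin ligase MYLIP. Bulk RNA cannot tell fewer expressing cells from less RNA per cell.

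The libraries held 35838342 and 26564059 counts with vehicle and 32102232 and 244165712 counts with DCA, so DCA replicate 2 stood apart in depth. Levels are given as CPM, counts scaled to library size by edgeR's TMM method. A count of 0 allows up to 3 counts, a limit of 0.0819 and 0.114 CPM in vehicle libraries and of 0.0928 and 0.0125 CPM in the DCA libraries. More genes had 2 counts than 1 count in every library (for example 416 and 229 in vehicle replicate 2). Such limits and the counts themselves cover counting error only, since amplified reads are not independent molecules. The summed level of 10 ILC2 markers lay between 9226 and 9769 CPM in all 4 libraries, with Gata3, Il1rl1, Id2, Icos, and Klrg1 well detected and Thy1 at 4.24 CPM or less. That sum was mostly Icos (3315 to 3582 CPM) and Id2 (2807 to 3111 CPM). Rora (35.1 to 70.0 CPM) and Il17rb (31.5 to 38.9 CPM) were far lower. Of the 10 ILC2 markers 2 (Il7r and Icos) were above and 2 (Il1rl1 and Klrg1) were below vehicle in both DCA libraries, and 6 overlapped. Il7r (the IL-7 receptor) was at 373 and 350 CPM with vehicle and at 582 and 462 CPM with DCA, Il1rl1 (the IL-33 receptor) was at 831 and 875 CPM with vehicle and at 598 and 534 CPM with DCA, and Klrg1 was at 687 and 677 CPM with vehicle and at 463 and 357 CPM with DCA. The 4 ILC3 markers had no count in any library. Of the 6 macrophage and monocyte markers, Csf1r and Cd14 had no count and Lyz2 reached at most 0.0083 CPM, while Cd68 was at 24.2 and 23.9 CPM with vehicle and at 7.30 and 10.2 CPM with DCA. The summed macrophage and monocyte level was 23.9 to 24.6 CPM with vehicle and 7.30 to 10.2 CPM with DCA, and its part in the results below was not tested. Summed levels of T cell markers (11.3 to 25.6 CPM, mostly Cd3g), B cell markers (37.7 to 55.04 CPM, mostly Cd79b), epithelial markers (7.73 to 13.5 CPM), and mast cell and basophil markers (0.35 to 4.70 CPM) were small beside the summed ILC2 markers, and Cd4, Cd8a, Pax5, Krt20, and Fcer1a had no count. Cd79b alone (37.4 to 55.04 CPM) was above the ILC2 marker Il17rb in every library.

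Promoters are shown for 3 members: Hmgcs1, the one member with a window that matched the form of the sterol regulatory element searched here, Msmo1, the sterol gene with the smallest p-value, and Acss2, which was counted only in DCA libraries. RefSeq on the GRCm38.p6 build gives them from 250 bases before to 50 bases after the gene start, at chr13:119690101-119690400 (plus strand), chr8:64733529-64733828 (minus strand), and chr2:155517793-155518092 (plus strand). Each is printed from 5′ to 3′ along its gene, and capitals mark matches on either strand to the sterol regulatory element TCACNCCAC, the E-box CACGTG, or the CCAAT box (CCAAT, which reads ATTGG on the other strand).
Hmgcs1: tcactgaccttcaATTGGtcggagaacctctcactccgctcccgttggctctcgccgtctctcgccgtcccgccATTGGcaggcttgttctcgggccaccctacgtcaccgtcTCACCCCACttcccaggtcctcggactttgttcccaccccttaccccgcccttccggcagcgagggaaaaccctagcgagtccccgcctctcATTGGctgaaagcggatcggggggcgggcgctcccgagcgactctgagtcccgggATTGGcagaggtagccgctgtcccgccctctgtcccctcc
Msmo1: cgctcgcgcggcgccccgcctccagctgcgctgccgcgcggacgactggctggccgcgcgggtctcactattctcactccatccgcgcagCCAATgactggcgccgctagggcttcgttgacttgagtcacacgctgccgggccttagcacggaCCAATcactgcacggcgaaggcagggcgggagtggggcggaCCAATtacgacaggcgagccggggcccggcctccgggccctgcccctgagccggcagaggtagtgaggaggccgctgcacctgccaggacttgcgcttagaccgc
Acss2: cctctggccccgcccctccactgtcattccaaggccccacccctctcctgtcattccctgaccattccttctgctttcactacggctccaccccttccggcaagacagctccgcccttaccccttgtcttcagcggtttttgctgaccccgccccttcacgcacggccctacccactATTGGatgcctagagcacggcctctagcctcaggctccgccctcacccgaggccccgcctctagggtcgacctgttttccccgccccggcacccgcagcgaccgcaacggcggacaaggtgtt
The sterol regulatory element is the site that SREBPs bind, and the CCAAT box is bound by NF-Y, a factor known to work beside SREBPs. In the Hmgcs1 window the element began at position -137 from the start, with CCAAT boxes at -237, -176, -45, and 11. The Msmo1 window held CCAAT boxes at -160, -96, and -55, and the Acss2 window held 1, at -73. Neither held TCACNCCAC or CACGTG within these bases.

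Promoters of 28 of the 37 members were matched in the RefSeq table, 36 windows in all because some genes have several starts. Fdps, Fdft1, Sqle, Scd1, Scd2, Fads1, Abcg1, Stard4, and Npc1 were not matched. The CCAAT box was found in 63.9% of the member windows and in 37.4% of all 32851 windows of the same length. Among sterol synthesis genes it was found in 11 of the 12 genes matched, in 73.3% of their 15 windows. The E-box was found in 19.4% of member windows (7 windows, of Dhcr7, Sc5d, Insig1, Scap, Elovl5, and Abca1) and in 7.15% of all windows. The sterol regulatory element was found in 1 member window (2.78%) and in 1.24% of all windows. No match of one motif overlapped a match of another. These are matches of letters only and were not tested as binding sites. Forms of the sterol regulatory element other than TCACNCCAC were not searched, so a window without a match may still hold one.

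No member passed an adjusted p of 0.05 between DCA and vehicle. The quasi-likelihood test of edgeR called 0% of the 11184 genes tested (477 genes at an unadjusted p under 0.05), limma called 0 members, and DESeq2 called 254 of 17706 genes, 1 of them a member (Acss2). The smallest Benjamini-Hochberg adjusted p in that edgeR test was 0.998. Of the 36 members tested, 27 had a log2 fold change above 0 and 9 below, a share of 75% against 51% of all genes tested. Their median log2 fold change was 0.24, against 0.012 over all genes, which describes a list chosen with results in view. At an unadjusted p of 0.05, which 4.27% of all genes reached in edgeR's test, 1 member was called, Acss2. That gene had no count with vehicle and passed the filter of a mean of at least 1 CPM only through the DCA libraries. Both DCA libraries lay above both vehicle libraries in 7 of the 36 members (Acat2, Mvd, Msmo1, Acss2, Elovl5, Elovl6, and Abcg1), close to the 18.8% of all genes with that order. They lay below both in 2 members (Pmvk and Sc5d), against 14.5% of all genes. In the other 27 members tested the treatments overlapped, as they did in 7452 of the 11184 genes tested.

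**Figure D1:**
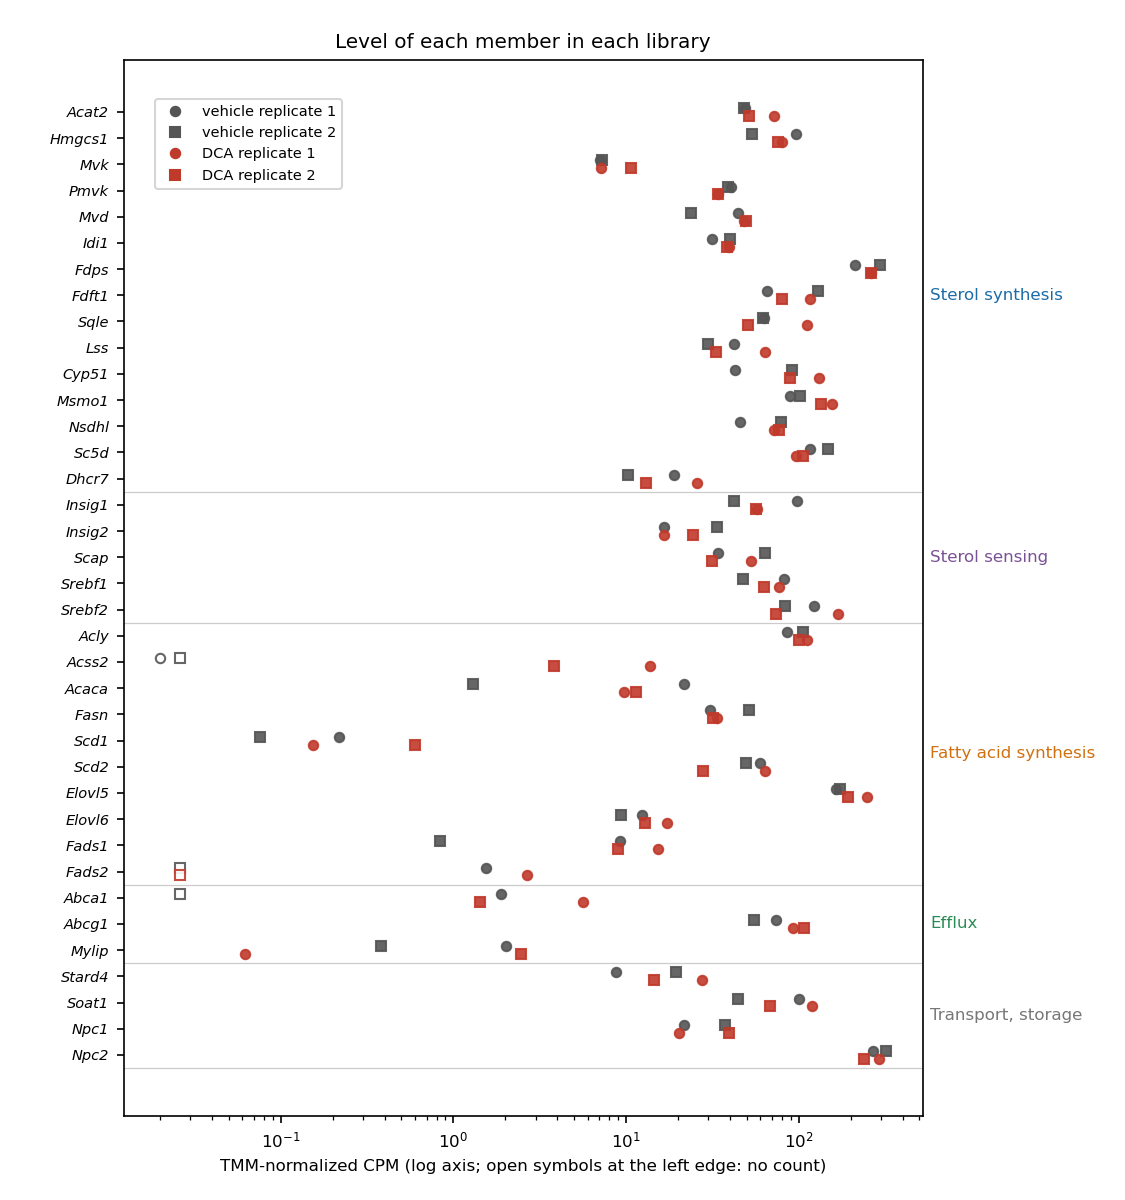
Level of each of the 37 members in each library, as TMM-normalized CPM on a log axis, with vehicle in grey and DCA in red, replicate 1 as circles and replicate 2 as squares, and open symbols at the left edge for libraries without a count. Acss2 had no count with vehicle and 13.9 and 3.80 CPM with DCA, whereas the sterol synthesis genes lay between 7.07 CPM (Mvk) and 297 CPM (Fdps).

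In 10 of the 15 sterol synthesis genes the treatments overlapped, while in 3 both DCA libraries lay above vehicle and in 2 below. These counts are close to the shares over all genes. There 7452 of 11184 overlapped, 18.8% lay above and 14.5% below. By the sign of the log2 fold change 13 genes were above 0 and 2 below, with a median of 0.32 and a range from -0.38 to 0.71. In edgeR's test no unadjusted p was under 0.05. The summed level of the 15 genes was 968 and 1162 CPM in vehicle libraries and 1318 and 1109 CPM with DCA, so the treatments overlapped (two-sided exact permutation test, p = 0.667, where 0.333 is the smallest p that 2 libraries against 2 allow). The count and the median rested on single libraries. Without vehicle replicate 1, 9 genes were above 0 and 6 below, and the same split, 9 and 6, was found without DCA replicate 1, when the median was 0.043.

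The early enzymes make and activate mevalonate. Acat2, which joins acetyl-CoA units at the start of the path, was at 49.1 and 48.4 CPM with vehicle and at 71.6 and 51.4 CPM with DCA. Hmgcs1, the HMG-CoA synthase, was at 96.8 and 53.6 CPM with vehicle and at 80.4 and 76.4 CPM with DCA, inside the vehicle range. DCA thus lay above vehicle for Acat2, by little in replicate 2, and the treatments overlapped for Hmgcs1, the gene with the sterol regulatory element printed above. Of the 150-base stretches of Acat2, 19.9% also lie in another annotated gene, mostly its relative Acat3, which was at 0.46 to 1.39 CPM. For Hmgcs1 the share was 6.9%, with Gm48342 on the opposite strand. Mvk, the mevalonate kinase, was low, at 7.07 and 7.24 CPM with vehicle and at 7.20 and 10.7 CPM with DCA. Pmvk, the kinase that adds the next phosphate, was at 40.7 and 39.1 CPM with vehicle and at 34.3 and 34.0 CPM with DCA, so DCA was below vehicle in every pair of libraries. Its log2 fold change was -0.23 (SE 0.028, computed from log2(CPM + 1) of the 4 libraries), and the unadjusted p was 0.545 in edgeR's test. Mvd, which decarboxylates mevalonate diphosphate, was at 44.6 and 23.7 CPM with vehicle and at 48.2 and 49.4 CPM with DCA. The log2 fold change of Mvd was 0.51 with an unadjusted p of 0.268 in edgeR's test, and DCA was above vehicle in all pairs of libraries, although the vehicle libraries differed 1.88-fold between themselves.

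Isoprenoid and squalene genes overlapped between treatments. Idi1, the isopentenyl diphosphate isomerase, was at 31.5 and 40.3 CPM with vehicle and at 39.4 and 38.5 CPM with DCA. Fdps, the farnesyl diphosphate synthase, was at 213 and 297 CPM with vehicle and at 264 and 263 CPM with DCA, with both DCA libraries between the vehicle libraries. Fdft1, the squalene synthase that commits carbon to sterols, was at 66.0 and 129 CPM with vehicle and at 116 and 80.3 CPM with DCA. These 3 genes had log2 fold changes of 0.12, 0.05, and 0.01. Per kilobase of exon, with the exons of all annotated transcripts merged, Fdps had the highest level of all members with vehicle (60.6 CPM per kb). Npc2 (54.4 CPM per kb) and Elovl5 (48.0 CPM per kb) followed, an order that depends on this length. Of these genes' 150-base stretches, 18.8% in Idi1, 17.9% in Fdps, and 15.2% in Fdft1 also lie in another annotated gene, so that reads there can be assigned to either. For Fdft1 that gene is Ctsb on the opposite strand, a cathepsin counted at 430 to 547 CPM. Sqle, the squalene epoxidase, was at 63.1 and 62.4 CPM with vehicle and at 112 and 51.2 CPM with DCA, so that DCA replicate 1 was above and DCA replicate 2 below both vehicle libraries. Lss, the lanosterol synthase, was at 42.3 and 29.9 CPM with vehicle and at 63.5 and 33.4 CPM with DCA. Here too DCA replicate 1 was the highest library.

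Cyp51 and Msmo1, which demethylate lanosterol and its products, had the largest log2 fold changes of the 15 genes. Msmo1 encodes the oxidase that removes the methyl groups at carbon 4 of the sterol ring and lies on chromosome 8 from 64718123 to 64733578 on the minus strand. It was at 89.6 and 102 CPM with vehicle and at 155 and 136 CPM with DCA, means of 95.6 ± 8.54 and 146 ± 13.95 CPM (SD, n = 2 each). The DCA libraries both exceeded both vehicle libraries, and the gap between treatments exceeded the gap between replicates. Its log2 fold change was 0.61 (SE 0.13), with an adjusted p of 0.998 in edgeR's test (unadjusted p of 0.0504). The limma interval of the difference, on log2(CPM + 1), ran from 0.0022 to 1.20. Over the alternatives with all libraries the adjusted p of Msmo1 ranged from 0.413 in DESeq2 to 1, and the log2 fold change ranged from 0.49 to 0.70 when 1 library was left out in turn. Cyp51, the lanosterol 14-demethylase, was at 42.8 and 91.6 CPM with vehicle and at 131 and 88.9 CPM with DCA. Its log2 fold change of 0.71 was the largest of the sterol synthesis genes, the unadjusted p was 0.148 in edgeR's test, and DCA replicate 2 lay just below vehicle replicate 2. The value of Cyp51 was 1.36 without vehicle replicate 2 and 0.24 without vehicle replicate 1, and 0.40 without DCA replicate 1.

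Nsdhl, the sterol dehydrogenase that acts after Msmo1, was at 45.7 and 79.4 CPM with vehicle and at 72.4 and 77.1 CPM with DCA. Sc5d, the sterol C5-desaturase, was at 116 and 148 CPM with vehicle and at 96.9 and 106 CPM with DCA, means of 132 ± 22.8 and 101 ± 6.17 CPM (SD, n = 2 each). It had the lowest log2 fold change of all members, -0.38 (SE 0.19), with an unadjusted p of 0.191 in edgeR's test. Sc5d and Pmvk were thus the 2 sterol genes below vehicle in both DCA libraries. Dhcr7, the reductase that makes cholesterol in the last step, was at 19.0 and 10.2 CPM with vehicle and at 25.7 and 13.0 CPM with DCA. In Dhcr7, as in Lss and Sqle, DCA replicate 1 was the highest library.

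**Figure D2:**
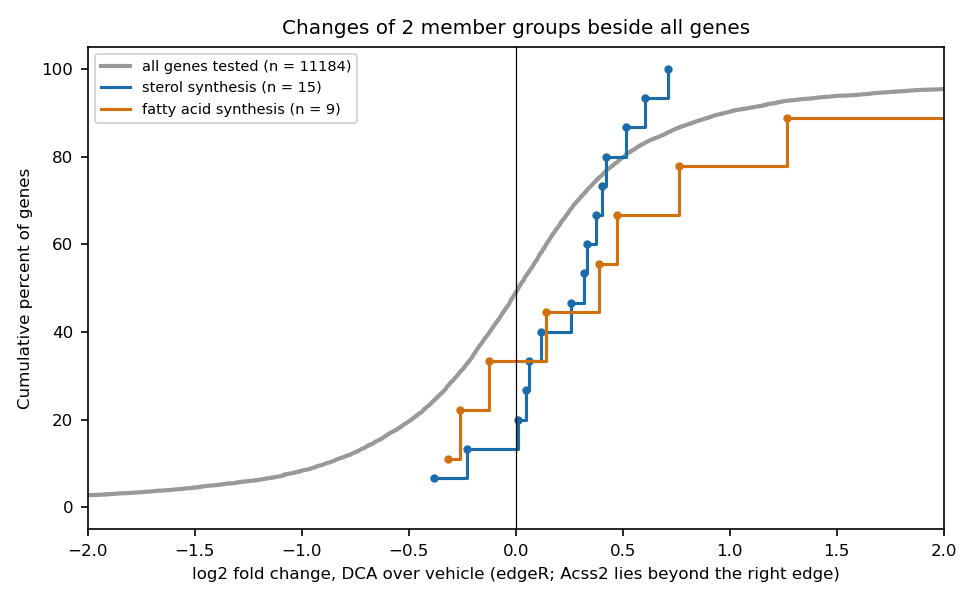
Cumulative percent of genes by log2 fold change of DCA over vehicle from edgeR, for all 11184 genes tested (grey), the 15 sterol synthesis genes (blue), and the 9 fatty acid synthesis genes tested (orange), with points for single genes. The sterol curve crosses 0 with 2 genes to its left and ends at 0.71, and the line for all genes crosses 0 near its middle (51% of genes above 0).

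Of the wider sterol path 14 more genes were measured. All 14 were tested, with 11 above 0, 3 below, a median log2 fold change of 0.075, and none with an unadjusted p under 0.05 in edgeR's test. The smallest p of this list was that of Hsd17b7, a sterol ketoreductase that acts beside Msmo1 and Nsdhl and was named after its values were seen. Hsd17b7 was at 25.4 and 25.7 CPM with vehicle and at 10.3 and 13.6 CPM with DCA. It lay below vehicle in both DCA libraries, with a log2 fold change of -1.09 and an adjusted p of 0.998 in edgeR's test (unadjusted p of 0.0758).

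Genes that sense sterols showed no common direction. Of the 5 genes, 2 had a log2 fold change above 0 and 3 below, the median was -0.23, and in all 5 the treatments overlapped. Overlap was also found in 7452 of the 11184 genes tested. Insig1, itself a target of SREBPs, was at 97.9 and 42.4 CPM with vehicle and at 57.0 and 56.4 CPM with DCA, so both DCA libraries lay between the vehicle libraries. Insig2, its relative, was at 16.6 and 33.5 CPM with vehicle and at 16.5 and 24.5 CPM with DCA. The ratio of Insig1 to Insig2 was 5.89 and 1.27 in the vehicle libraries and 3.45 and 2.30 in the DCA libraries (two-sided exact permutation test, p = 1). The vehicle replicates alone spanned the whole range of this ratio. Scap was at 34.3 and 64.1 CPM with vehicle and at 52.7 and 31.3 CPM with DCA. Srebf1, which mainly drives fatty acid genes, was at 82.4 and 47.6 CPM with vehicle and at 76.7 and 63.4 CPM with DCA. Srebf2, which mainly drives sterol genes, was at 122 and 83.6 CPM with vehicle and at 168 and 73.6 CPM with DCA, so the DCA libraries were the highest and the lowest. Unadjusted p-values of these 5 genes were 0.511 or more in edgeR's test, and limma's intervals on log2(CPM + 1) reached from -1.47 to 1.03 for Insig2, the widest, and from -0.67 to 0.98 for Srebf1, the narrowest. A 2-fold lower level with DCA lies inside the intervals of Insig1, Insig2, and Scap, and a 2-fold higher level lies inside those of Insig2 and Srebf2.

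Fatty acid synthesis genes ranged more widely. Of 10 genes, 9 were tested, with 6 above 0, 3 below, and a median log2 fold change of 0.39. Leaving out DCA replicate 1 gave a median of 0.13, leaving out DCA replicate 2 gave 0.56, and restricting the test to genes averaging 5 CPM or more gave 0.14. Their summed level was 385 and 392 CPM in vehicle libraries and 516 and 392 CPM with DCA (two-sided exact permutation test, p = 0.667), and only DCA replicate 1 was above the vehicle libraries. Acly, which cleaves citrate to give cytosolic acetyl-CoA, was at 85.2 and 107 CPM with vehicle and at 111 and 101 CPM with DCA, with overlap.

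Acss2, which makes acetyl-CoA from acetate, was the member with the largest difference. It lies on chromosome 2 from 155518043 to 155562743 on the plus strand. It had no count in either vehicle library and 448 and 913 counts in DCA replicates 1 and 2, or 13.9 and 3.80 CPM. With each vehicle library set to its limit of 3 counts, Acss2 was at least 90.0-fold higher in these DCA libraries. The bound was at least 141-fold by DCA replicate 1 alone and at least 38.8-fold by DCA replicate 2 alone. These bounds cover counting error only and not the spread between replicates, which for Thy1 was 169-fold between the DCA libraries (4.24 and 0.025 CPM). The DCA libraries themselves differed 3.64-fold. Acss2 passed the filter of a mean of at least 1 CPM only through the DCA libraries (means of 0 CPM with vehicle and 8.83 CPM with DCA). Its p-values are therefore those of a gene that entered the test through the treatment in which it was high. Its unadjusted p was 0.00399 and its adjusted p 0.998 in edgeR's test, and the adjusted p over the alternatives with all libraries ranged from 2.27e-05 in DESeq2 to 1. The adjusted p was 0.0271 in edgeR without a filter on low counts. Without DCA replicate 1 the unadjusted p in edgeR's test was 0.0853. Acss2 was 1 of 22 genes with no count in both vehicle libraries and at least 3 CPM in both DCA libraries, and 2 genes had the opposite pattern, a rule chosen after the values were seen. The 22 and the 2 cannot be compared directly. DCA replicate 2 held 244165712 counts and vehicle replicate 2 held 26564059, so no count in both DCA libraries is harder to reach. The rule was not run with DCA replicate 2 thinned.

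Genes next to Acss2 share little of its sequence. Of its 150-base stretches, 1.32% also lie in another annotated gene. On the opposite strand the exons of Acss2 overlap Gss (3.89% of the exonic length of Acss2), Ggt7 (1.94%), and Acss2os (3.3%). The strand setting of the counting is not given. Gss, a glutathione synthetase, was at 29.6 and 28.9 CPM with vehicle and at 33.1 and 23.2 CPM with DCA, so this overlapping gene was counted in the libraries in which Acss2 had no count. Ggt7 was at 20.96 and 11.2 CPM with vehicle and at 8.22 and 4.12 CPM with DCA, and Acss2os had no count. Acss1, the mitochondrial relative of Acss2, had 0 and 178 counts with vehicle and 0 and 11 counts with DCA. Per kilobase of exon, Acss2 reached a mean of 0.869 CPM per kb with DCA, against 20.1 CPM per kb for Acly. These neighbours and relatives were chosen after the values were seen.

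Acaca and Fasn carry out the committed steps. Acaca, the acetyl-CoA carboxylase that makes malonyl-CoA, was at 21.8 and 1.296 CPM with vehicle and at 9.71 and 11.5 CPM with DCA. The vehicle libraries differed 16.8-fold, with both DCA libraries between them, and the sign of the difference depended on the method (-0.12 in edgeR, 0.68 in limma on log2(CPM + 1)). A share of 18.4% of the 150-base stretches of Acaca also lies in another annotated gene. Fasn, the fatty acid synthase, was at 30.7 and 51.3 CPM with vehicle and at 33.9 and 32.1 CPM with DCA, which gave a log2 fold change of -0.31 (SE 0.36). For Fasn too both DCA libraries lay inside the vehicle range.

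Desaturases and elongases finish the chains. Of the stearoyl-CoA desaturases, Scd1 was nearly absent, at 0.22 and 0.076 CPM with vehicle and at 0.15 and 0.60 CPM with DCA, and was below the level needed for testing. Scd2 was at 60.0 and 49.3 CPM with vehicle and at 63.6 and 27.8 CPM with DCA, so that Scd2 was the more abundant stearoyl-CoA desaturase, at 10.0 CPM per kb with vehicle against 0.030 CPM per kb for Scd1. Elovl5, which lengthens polyunsaturated chains, was at 164 and 173 CPM with vehicle and at 248.5 and 193 CPM with DCA, means of 169 ± 6.40 and 221 ± 38.9 CPM (SD, n = 2 each). The DCA libraries both exceeded both vehicle libraries, with a log2 fold change of 0.39 (SE 0.18) and an unadjusted p of 0.154 in edgeR's test. Elovl6, which lengthens saturated chains, was at 12.3 and 9.34 CPM with vehicle and at 17.2 and 12.8 CPM with DCA. Its log2 fold change was 0.47 (SE 0.27), and its unadjusted p was 0.482 in edgeR's test. The ratio of Elovl5 to Elovl6 was 13.4 and 18.6 with vehicle and 14.5 and 15.1 with DCA (two-sided exact permutation test, p = 1), so the DCA values were inside the vehicle range. Fads1, the delta-5 desaturase, was at 9.28 and 0.84 CPM with vehicle and at 15.4 and 8.998 CPM with DCA. The vehicle libraries of Fads1 differed 11.1-fold, and its log2 fold change of 1.27 was 3.84 without vehicle replicate 1 and 0.39 without vehicle replicate 2. Fads2, the delta-6 desaturase, had 57 counts in vehicle replicate 1, 86 in DCA replicate 1, and none in either replicate 2. Vehicle and DCA thus did not separate for Fads2, and the deepest library, DCA replicate 2, allows at most 0.0125 CPM of it.

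Of 23 further genes of fatty acid synthesis, 18 were tested, with 11 above 0, 7 below, and a median log2 fold change of 0.10. Of these 18, Slc25a1 alone fell under an unadjusted p of 0.05 by edgeR's test, which 4.27% of all genes tested also did. It is named here because of that p. Slc25a1, the carrier that exports citrate from mitochondria to the cytosol, was at 34.4 and 35.9 CPM with vehicle and at 75.4 and 57.3 CPM with DCA. The DCA libraries both exceeded both vehicle libraries, with a log2 fold change of 0.92, and an adjusted p of 0.998 in edgeR's test (unadjusted p of 0.032). The limma interval of Slc25a1 ran from 0.085 to 1.69 on log2(CPM + 1).

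**Figure D3:**
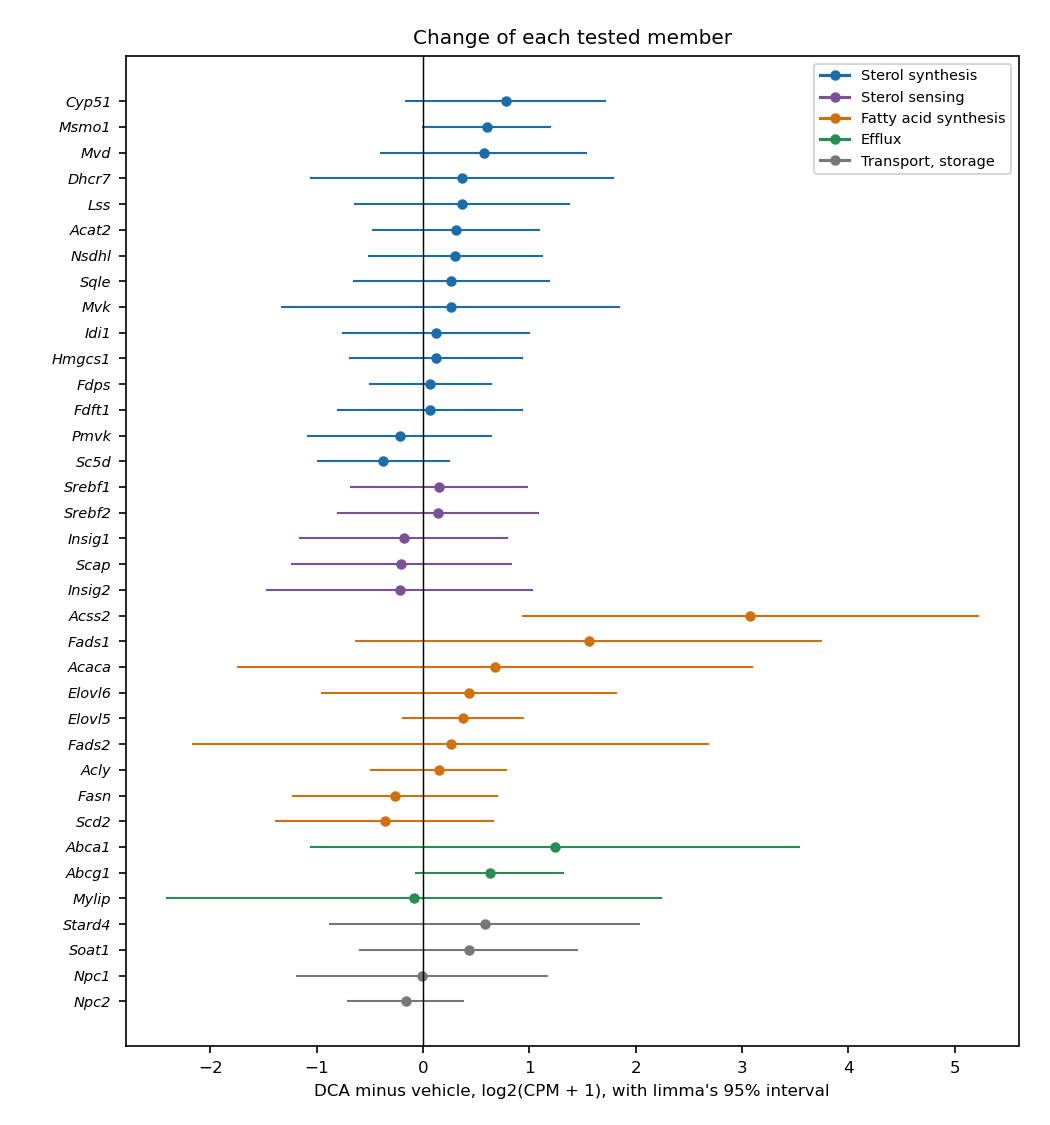
Difference between DCA and vehicle in each of the 36 members tested, on log2(CPM + 1), with limma's 95% interval as a line and colors for the member groups. The intervals of Acss2 (0.94 to 5.22) and Msmo1 (0.0022 to 1.20) lie above 0, before any adjustment, and those of the other 34 members include 0. Of all 11184 genes tested, 519 had an unadjusted p under 0.05 in limma on this scale.

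Efflux genes were higher in the sum with DCA, carried by Abcg1. The summed level of Abca1, Abcg1, and Mylip was 78.3 and 55.9 CPM in vehicle libraries and 98.9 and 111 CPM with DCA, with no overlap (two-sided exact permutation test, p = 0.333, the smallest possible). Abcg1, a pump that moves cholesterol to lipoprotein particles, lies on chromosome 17 from 31057694 to 31117984 on the plus strand. It was at 74.4 and 55.5 CPM with vehicle and at 93.2 and 107 CPM with DCA, means of 65.0 ± 13.4 and 100.1 ± 9.78 CPM (SD, n = 2 each). The DCA libraries both exceeded both vehicle libraries, and the log2 fold change was 0.62 (SE 0.23) with an adjusted p of 0.998 in edgeR's test (unadjusted p of 0.0766). The limma interval of Abcg1 ran from -0.066 to 1.32, and leaving out 1 library in turn gave log2 fold changes from 0.43 to 0.83. Abca1, which loads cholesterol on apolipoproteins, had few counts, at 1.88 and 0 CPM with vehicle and at 5.66 and 1.42 CPM with DCA. DCA replicate 2 was below vehicle replicate 1, so Abca1 overlapped between treatments despite a log2 fold change of 1.903 (SE 1.06), which was 0.61 without vehicle replicate 2. Mylip, the ligase that marks lipoprotein receptors for breakdown, was at 2.02 and 0.38 CPM with vehicle and at 0.062 and 2.48 CPM with DCA. In Mylip the DCA libraries were the lowest and the highest, 40.0-fold apart. The order of the 4 libraries thus differed between Abca1, Abcg1, and Mylip.

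**Figure D4:**
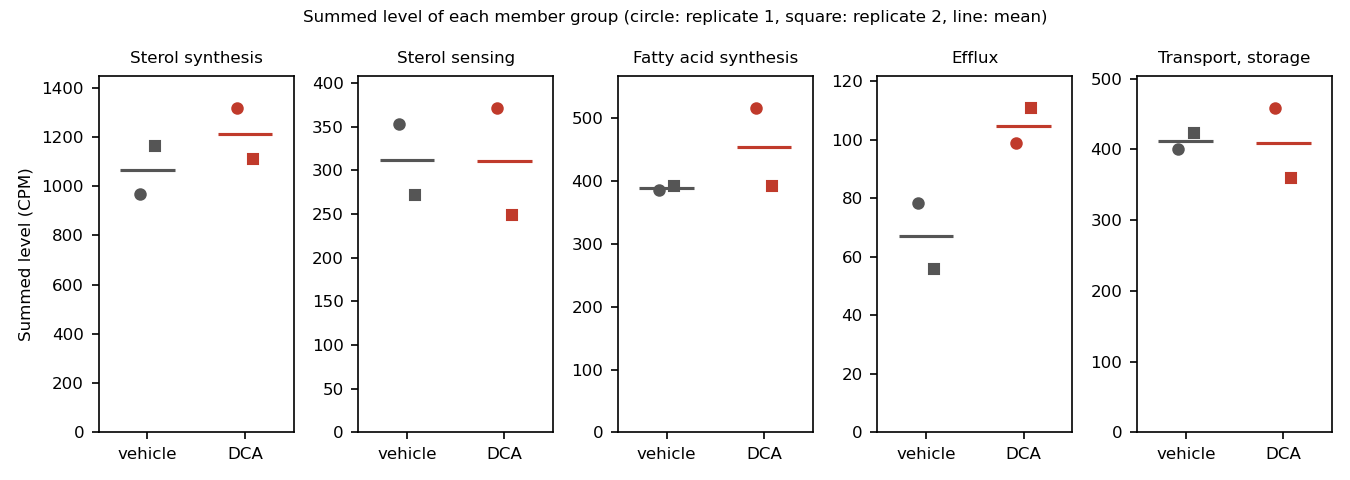
Summed CPM of the members of each group in each library, vehicle in grey and DCA in red, with circles for replicate 1, squares for replicate 2, and lines for the means, each panel starting at 0. The efflux sum is the one in which the treatments do not overlap (55.9 and 78.3 CPM with vehicle, 98.9 and 111 CPM with DCA).

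Transport and storage genes overlapped between treatments in all 4 cases, as did 7452 of the 11184 genes tested. Stard4, which carries cholesterol between membranes, was at 8.73 and 19.6 CPM with vehicle and at 27.7 and 14.6 CPM with DCA. Soat1, which esterifies cholesterol for storage, was at 99.95 and 44.4 CPM with vehicle and at 120 and 67.9 CPM with DCA, with replicate 1 above replicate 2 in both treatments. Npc1, the lysosomal membrane protein that passes cholesterol out of lysosomes, was at 21.6 and 37.5 CPM with vehicle and at 20.2 and 39.4 CPM with DCA. Here replicate 2 was above replicate 1 in both treatments. Npc2, the soluble partner that hands cholesterol to NPC1, was at 270 and 322 CPM with vehicle and at 291 and 238 CPM with DCA. The summed level of the 4 genes was 401 and 423 CPM in vehicle libraries and 459 and 360 CPM with DCA (two-sided exact permutation test, p = 1). Of 18 further genes of cholesterol transport, 15 were tested, with 7 above 0, 8 below, a median log2 fold change of -0.0075, and none with an unadjusted p under 0.05 in edgeR's test.

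The gap between single replicate libraries was larger than the difference of treatment means for most members, and by the medians also over all genes tested. On log2(CPM + 1) the median gap between the vehicle replicates was 0.75 over the members tested and 0.55 over all genes tested. The median gap between the DCA replicates was 0.49 over the members and 0.41 over all genes, whereas the median size of the treatment difference was 0.29 over the members and 0.35 over all genes. In 29 of the 36 members tested the larger of the replicate gaps exceeded the treatment difference. That rule and the medians set gaps between single libraries against a difference of means. Such gaps tend to be larger even without any treatment effect, so these values describe spread and test nothing. The share of the rule over all genes was not computed. At least 100 counts in every library were found for 30 of the 37 members. A replicate gap over 2 on this scale was found for 2 members, Acaca and Fads1, both between the vehicle libraries, and in 14.2% of all genes tested.

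**Figure D5:**
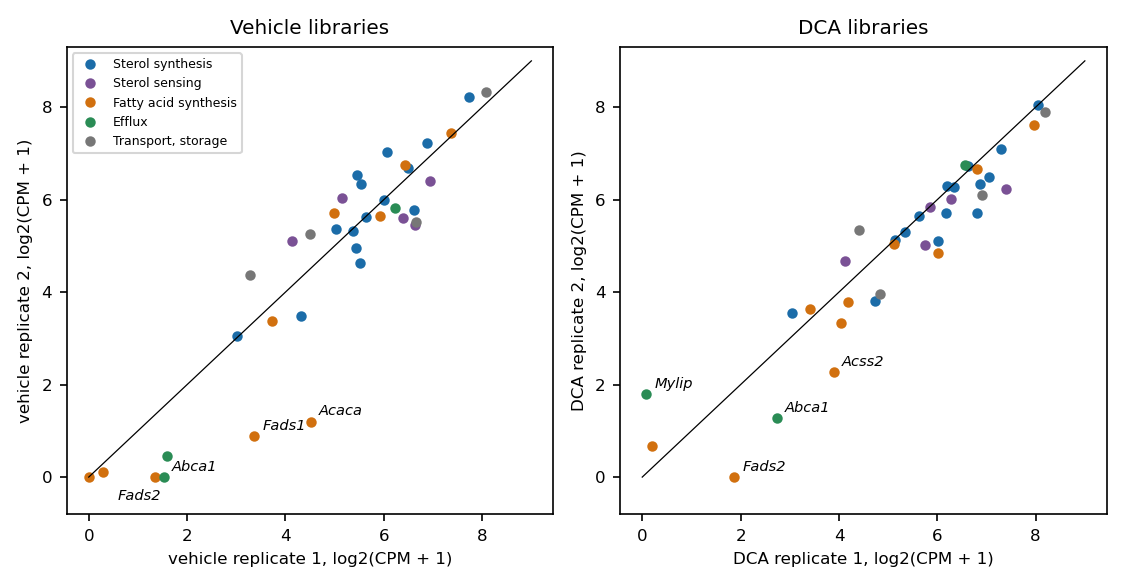
Level of each member in replicate 1 (horizontal) and replicate 2 (vertical) of the vehicle libraries (left) and of the DCA libraries (right), as log2(CPM + 1), with the line of equal levels. Acaca and Fads1 lie farthest below the line with vehicle (gaps of 3.31 and 2.48), and Fads2 and Mylip lie farthest from it with DCA (gaps of 1.87 and 1.71).

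With DCA replicate 2 thinned at random to 31509261 counts, close to the other libraries, the sterol synthesis genes again had 13 log2 fold changes above 0 and 2 below. By edgeR's test 1 member, Acss2, again fell under an unadjusted p of 0.05 (its value was 0.00423), with 122 counts left in that library. These counts of members were thus the same at the lower depth.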

How the data were processed

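RNA was measured in 4 libraries of mouse ILC2s, 2 with vehicle and 2 with DCA, grouped by the labels. Full-length cDNA was made by SMART-Seq, and paired reads of 150 bases were sequenced. Per the submitters' processing notes, reads were trimmed with cutadapt 1.9 and aligned to mm10 with HISAT2 2.2.1. The counting tool, its annotation, and its strand setting are not given in the sources used here. Each deposited value is a whole-number read count for a gene, without division by length or depth, although the name of the table refers to FPKM. A symbol is lacking in 1275 rows, which kept their identifiers.

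Genes averaging 1 CPM or more were kept (11184, of which 36 are members), scaled by TMM, and tested with edgeR 4.0.16 (quasi-likelihood, two-sided, Benjamini-Hochberg over all genes tested) in R 4.3.3. Intervals (95%) come from limma 3.58.1 with a variance trend on log2(CPM + 1), with a pseudocount of 1, and SEs from the spread of those values between libraries. Fold changes on that scale understate the change of low genes. A treatment with no count in either library was set to 3 counts per library. Levels per kb use exonic lengths of the GENCODE M21 annotation, whose build matches mm10, and positions use RefSeq on GRCm38.p6, for all 37 members. These lengths merge the exons of all annotated transcripts and can exceed the transcript that the cells make, so comparisons per kb between genes are rough.

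The genes named are the 37 members, the genes of 3 wider lists with an unadjusted p under 0.05, Hsd17b7, which was added after its values had been seen, and genes used to describe overlaps or marker lists. The members and lists were chosen with earlier results of these data known. The 3 promoters printed, the motifs, and the levels of 100 counts and 3 CPM were chosen after values had been seen. Alternatives were DESeq2 1.42.0, scaling by median of ratios or by total count, testing without a filter or above a mean of 5 CPM, limma with pseudocounts of 1 and 0.1, the replicate number as a block, DCA replicate 2 thinned, and leaving out each library. In simulated counts of 11184 genes, 200 were given a log2 fold change of 2. The edgeR test called 89 genes, 84 of them truly changed, at the spread fitted to these libraries by level. It called 210 genes, 197 of them truly changed, at a small spread. The fitted spread followed a trend with level, not each gene's own spread, and smaller changes were not simulated. Total counts per library ranged from 26564059 to 244165712. Whether each mate of a pair was counted was not tested, and if so, a count of 0 allows more.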

Additional observations from a re-analysis of the deposited data

How the results depend on the processing

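With 2 libraries per treatment the smallest exact two-sided p is 0.333. The count of members with an adjusted p under 0.05, 0 by edgeR's test, was 1 (Acss2) in DESeq2, which called 254 of 17706 genes, and 1 (Acss2) in edgeR without a filter on low counts, which called 36 of 17706 genes. The other alternatives called 0 members, and of these only the fit without Ctrl (vehicle) replicate 1 called any gene (20). The count at an unadjusted p under 0.05, 1 by edgeR's test, was 2 in DESeq2, 2 in limma with either pseudocount, and 2 with the replicate block (Acss2 and Msmo1 each time), 2 without a filter (Acss2 and Cyp51), 0 with a mean of at least 5 CPM, where Acss2 is no longer tested, and 0 (without DCA replicate 1) to 7 (without vehicle replicate 1) with 1 library left out. A lone library was then assumed to vary like the other treatment. In those fits the genes under 0.05 among all tested were also fewest without DCA replicate 1 and most without vehicle replicate 1. The range over the members was thus not particular to them. With all libraries, 477 of 11184 genes fell under 0.05 by edgeR's test, 1242 of 17706 in DESeq2, and 847 of 17706 without a filter. In limma (pseudocounts 1 and 0.1) 519 and 491 of 11184 did, with the block 464, and above a mean of 5 CPM 330 of 9092. The labels do not say that equal replicate numbers mark a shared source. Replicate differences correlated between treatments at 0.020 across genes and at 0.11 over the members tested, and the block was not used as a pairing. The median of the sterol synthesis genes ranged from 0.043 (without DCA replicate 1) to 0.31 with 1 library left out, and their split of 13 above and 2 below 0 was 12 and 3 in DESeq2 and with median-of-ratios scaling. With all libraries kept, 4 members changed sign. Fdft1 was at -0.021 in DESeq2 and -0.021 with median-of-ratios scaling. Npc1 was at -0.028 in both of these, -0.011 and -0.012 in limma with pseudocounts of 1 and 0.1, and -0.012 with the replicate block. Mylip was at -0.088 and -0.65 in limma, -1.04 with the block, and -0.028 with DCA replicate 2 thinned. Acaca was at 0.68 and 0.95 in limma and 0.97 with the block. With 1 library left out, log2 fold changes spanned 0 in 21 members, the sterol synthesis genes Hmgcs1 (-0.30 to 0.53), Idi1 (-0.071 to 0.30), Fdps (-0.19 to 0.31), Fdft1 (-0.42 to 0.57), Sqle (-0.29 to 0.83), Lss (-0.11 to 0.81), Nsdhl (-0.11 to 0.71), and Dhcr7 (-0.16 to 0.90), the sensing genes Insig1 (-0.79 to 0.40), Insig2 (-0.73 to 0.31), Scap (-0.66 to 0.29), Srebf1 (-0.23 to 0.54), and Srebf2 (-0.48 to 0.71), the fatty acid genes Acly (-0.032 to 0.31), Acaca (-1.04 to 3.01), Fasn (-0.66 to 0.10), Scd2 (-0.97 to 0.22), and Fads2 (-0.24 to 1.76), and Mylip (-0.66 to 1.06), Soat1 (-0.093 to 1.05), and Npc1 (-0.55 to 0.47). The remaining 15 members tested kept their sign in the alternatives run. The cause of these shifts was not tested.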
